A study of Homo sapiens with 12 samples.

Results

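The 50 genes described here encode the vesicle coats of the early secretory pathway and the machinery that works beside them. They were listed by name, with earlier results of these data known. The list holds 9 subunits of the COPI coat (coatomer), 12 genes of the COPII coat, 3 KDEL receptors and 8 genes of the ARF cycle. It also holds 8 subunits of the COG complex, 3 retromer subunits and 7 clathrin adaptors of the Golgi. All 50 were found among the 57773 genes of the counts table, and all 50 were among the 17532 genes tested. RNA was sequenced from A549, an established human lung adenocarcinoma cell line, in 3 groups of 4 libraries. The groups received siGOLM1-1, siGOLM1-2 or a non-targeting control siRNA, in each case at 50 nM with a lipid reagent, and were harvested 72 h later. GOLM1 encodes a membrane protein of the Golgi, and the comparisons ask how RNA levels of the transport machinery differ when it is silenced. The labels call the 4 libraries of a group biological replicates. The design has 1 cell line and 1 time point, so all statements are about these cells at that time.

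COPII coats bud cargo from the endoplasmic reticulum, and COPI coats carry escaped residents and recycling machinery back from the Golgi. Small GTPases start each coat, SAR1 for COPII and ARF for COPI, and are switched on by exchange factors and off by GTPase-activating proteins. KDEL receptors catch chaperones that leave the endoplasmic reticulum and hand them to COPI, COG tethers vesicles that recycle inside the Golgi, AP-1 and GGA adaptors sort cargo into clathrin vesicles at the trans-Golgi network, and retromer returns sorting receptors from endosomes.

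The libraries held 41.6 to 71.3 M counts, and a member had between 193 counts (COPZ2) and 26520 counts (ARF1) in a library. Levels are given as CPM, the rate of a gene's counts per 1 M counts of the library, scaled between libraries with the trimmed mean of M-values (TMM). GOLM1 fell from a mean of 366 CPM in the control to 38.5 CPM under siGOLM1-1 (log2 change -3.25) and 47.5 CPM under siGOLM1-2 (log2 change -2.95). The mitochondrial share of counts was 5.14 to 8.13% in the control, 3.22 to 4.89% under siGOLM1-1 and 4.87 to 7.27% under siGOLM1-2, and its part in the results was not tested. The 50 members together took 0.555% ± 0.0063 (SD, n = 4) of the control counts, 0.496% ± 0.0073 with siGOLM1-1 and 0.544% ± 0.0145 with siGOLM1-2. For marker genes alone, CPM was taken over the library total without TMM scaling. Among 6 epithelial markers, KRT8 and KRT18 reached 4343 and 2101 CPM in a control library, CDH1 133, KRT19 76.1, MUC1 13.6 and EPCAM 5.37 CPM. The highest KRT19 level was 135 CPM under siGOLM1-1 and 341 CPM under siGOLM1-2. The summed level of the 6, carried by KRT8 and KRT18, was lower with siGOLM1-1, at 2597 to 3264 CPM, than in the control, at 4968 to 6669 CPM, and it was 5582 to 5765 CPM with siGOLM1-2. Of 15 markers of other cell types in the table, 11 stayed under 1 CPM in every library of each siRNA group and 12 in every control library. The exceptions included COL1A1 at up to 88.6 CPM with siGOLM1-1, and the summed level of the list was 34.5 to 75.3 CPM in the control, 49.8 to 92.3 CPM under siGOLM1-1 and 28.4 to 43.1 CPM under siGOLM1-2. The part of these markers in the results was not tested. Fewer cells with a transcript and less of it per cell cannot be told apart in bulk RNA. Control replicates 1 and 2 stood apart from control replicates 3 and 4. Between these pairs the members differed by a median of 0.09 on the log2 scale and by at most 0.35 (COG1), against 0.20 and 5.60 over all genes tested. Results that rest on 1 pair of control libraries are named below.

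The members moved in both directions with each siRNA, and mostly by small steps. With siGOLM1-1, 10 members rose and 17 fell, and 23 were not called, a call being a Benjamini-Hochberg adjusted p under 0.05 in edgeR over all genes tested. That is 54.0% of the members. Leaving out control replicate 1 or 4 or siGOLM1-1 replicate 2 or 3, 1 at a time, or using control replicates 3 and 4 alone, gave 6 higher members in place of 10. Over all 17532 genes 47.5% were called, 23.7% higher and 23.8% lower. With siGOLM1-2, 6 members rose, 14 fell and 30 were not called, which is 40.0% of the members beside 45.0% of all genes, of which 21.8% were called higher and 23.2% lower. The direct comparison of siGOLM1-1 with siGOLM1-2 called 13 members higher and 16 lower, 58.0% of them, beside 54.4% of all genes, 27.9% higher and 26.5% lower. The share of members called was thus near the background in each comparison. The median log2 fold change of the members was 0.01, -0.09 and 0.02 in the 3 comparisons, where all genes had -0.01, -0.01 and 0.01. Their median absolute log2 fold change was 0.23, 0.18 and 0.25, beside 0.35, 0.33 and 0.40 over all genes. A change of at least 0.5 was reached by 13 members with siGOLM1-1, by 4 with siGOLM1-2 and by 10 in the direct comparison, against 36.4%, 33.5% and 41.6% of all genes. Every member had at least 193 counts in each library, a level not required of the genes tested. Between the control pairs, too, the members differed by less than all genes, a median of 0.09 against 0.20. Genes matched to the members in level were not compared. The split by direction depended on the scaling. Scaled by library totals alone, the calls were 7 higher and 20 lower with siGOLM1-1, 14 higher and 10 lower with siGOLM1-2, and 7 higher and 21 lower between the siRNAs, while the median of all genes shifted to -0.06, 0.07 and -0.12. That scaling ended the calls of SEC24A, KDELR2 and VPS35 with siGOLM1-1, of COPA, COPB1, COG5 and COG7 with siGOLM1-2, and of COPB1, COPB2, SEC16A, KDELR3, ARF1 and AP1S1 between the siRNAs. It added calls of COPA, COPB2 and VPS29 as lower with siGOLM1-1, of COPE, SEC24A, SEC24D, PREB, ARF5, ARFGAP2, AP1B1 and AP1S1 as higher with siGOLM1-2, and of PREB, KDELR2, VPS29, ARF3 and ARF5 as lower with siGOLM1-1 than with siGOLM1-2. Below, a value given for a gene without another unit is a log2 fold change on the TMM scale, and a direct difference is siGOLM1-1 over siGOLM1-2. Counts by role cover 3 to 12 genes each and are to be read beside the shares of all genes. Whether a role differs from all genes was not tested.

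**Figure D1:**
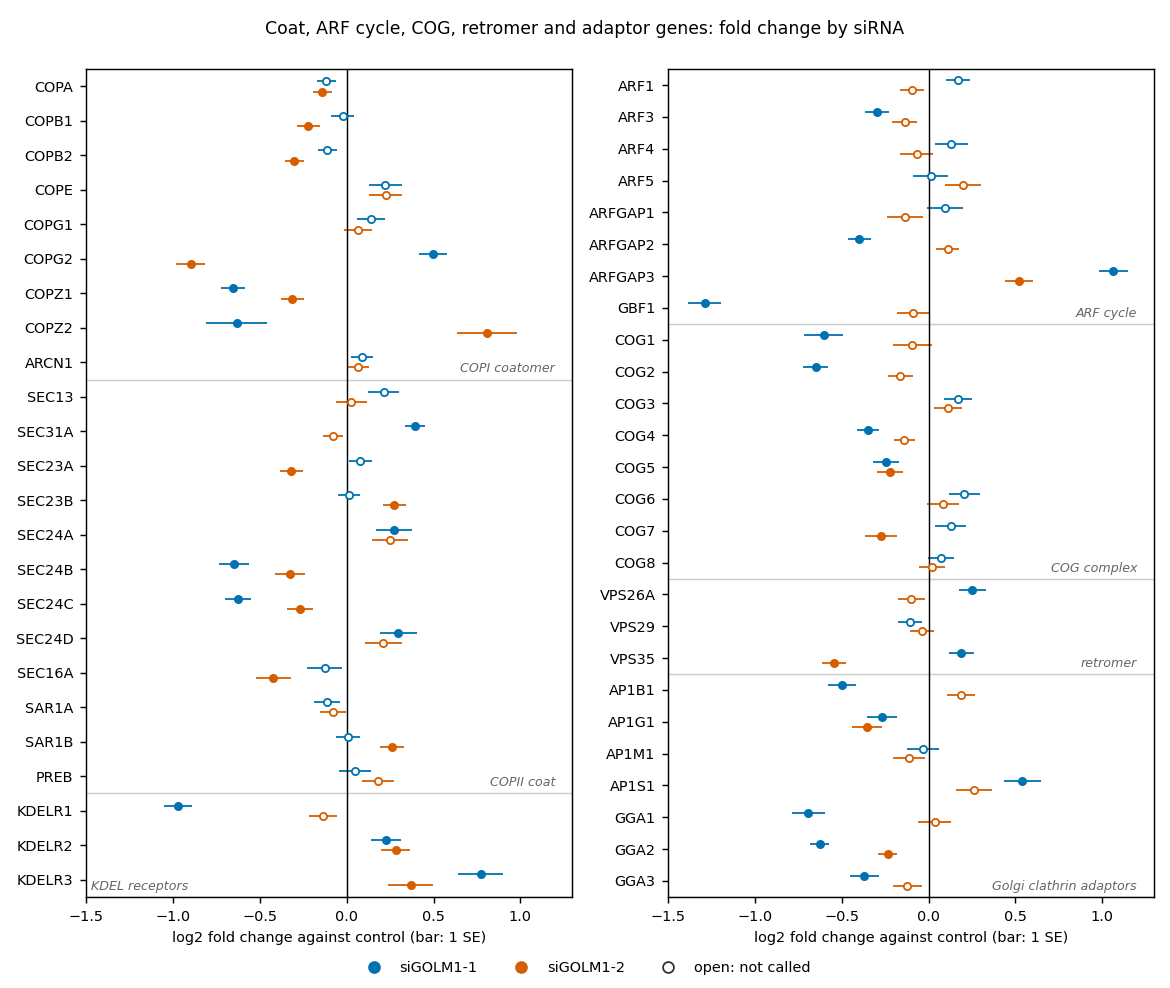
Log2 fold change of each of the 50 genes against control for siGOLM1-1 (blue) and siGOLM1-2 (orange), with bars of 1 standard error from the edgeR fit; filled points are called at an adjusted p under 0.05. Most points lie within 0.5 of 0, GBF1 at -1.29 and ARFGAP3 at 1.06 are the ends of the siGOLM1-1 range, and COPG2, COPZ2 and VPS35 have filled points on both sides of 0.

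Levels per length put the members on 1 scale in the control, as CPM per kb of the union of exons in GENCODE release 29. KDELR1, a retrieval receptor, had the highest control level at 194 ± 16.5 CPM per kb (SD, n = 4). ARF1, the GTPase that recruits coatomer, followed at 114 ± 2.97, and the coatomer subunit COPZ1 at 62.2 ± 1.67. COG6 and COG8 had the lowest levels, 1.84 ± 0.122 and 2.02 ± 0.0653 CPM per kb. The distance between paralogs varied. COPZ1 stood above COPZ2 at 3.52 ± 0.342, COPG1 at 28.3 ± 2.26 above COPG2 at 4.39 ± 0.244, and SEC24C at 40.2 ± 4.15 above SEC24B at 8.42 ± 0.280, SEC24A at 4.59 ± 0.346 and SEC24D at 3.33 ± 0.165 CPM per kb. In the KDEL receptor family KDELR2 had 36.8 ± 1.27 and KDELR3 8.46 ± 0.649 CPM per kb. Other pairs were closer, with SEC23A at 25.2 ± 0.464 and SEC23B at 26.7 ± 1.21, ARFGAP2 at 8.33 ± 0.688 and ARFGAP3 at 7.71 ± 0.209, and ARF4 at 48.3 ± 2.47 and ARF5 at 35.2 ± 3.21 CPM per kb.

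**Figure D2:**
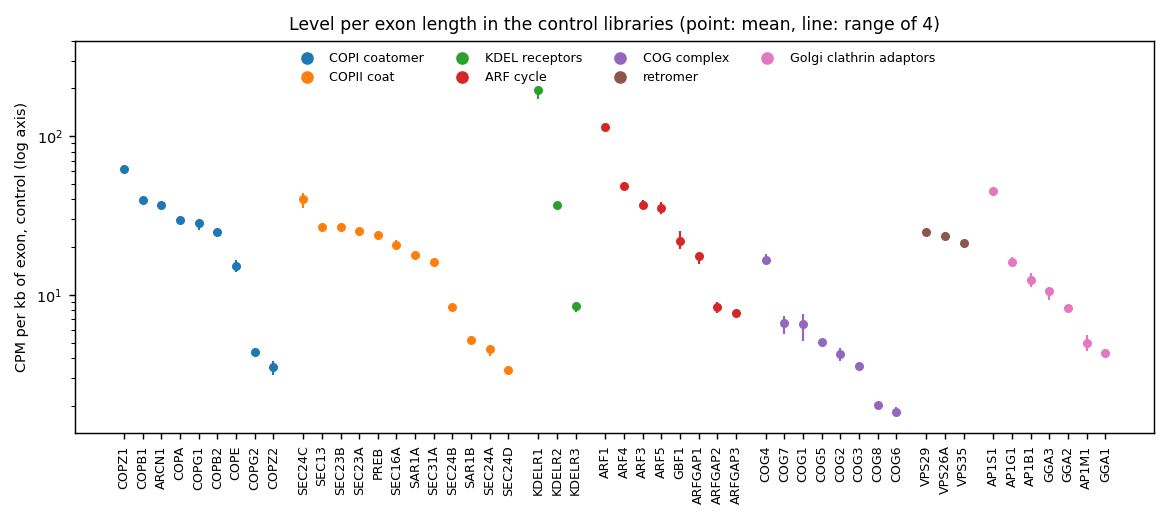
Control level of each gene in CPM per kb of exon on a log axis, ordered by level within each role; the point is the mean of 4 libraries and the line their range. KDELR1 at 194 and ARF1 at 114 stand above the rest, and COG6 at 1.84 is lowest.

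In the COPI coat the 3 calls with siGOLM1-1 were COPG2, COPZ1 and COPZ2, genes of the gamma and zeta subunits, which exist as paralogs. Of the 9 coatomer genes, 1 rose and 2 fell with siGOLM1-1, beside 23.7% and 23.8% of all genes. With siGOLM1-2, 1 rose and 5 fell, beside 21.8% and 23.2% of all genes. COPG2, the less abundant gamma subunit, stood at 17.7, 17.0, 19.0 and 19.1 CPM in the control libraries, 26.2, 27.2, 24.1 and 25.0 CPM under siGOLM1-1 and 10.1, 10.3, 10.2 and 8.41 CPM under siGOLM1-2. The 3 groups did not overlap: every siGOLM1-1 library was above and every siGOLM1-2 library below the control libraries. COPG2 rose 1.41-fold with siGOLM1-1 (log2 change 0.50 ± 0.08 SE, adjusted p = 0.000253) and fell 1.87-fold with siGOLM1-2 (log2 change -0.90 ± 0.08 SE, adjusted p = 2.6e-06). The 2 siRNAs differed 2.63-fold (log2 change 1.40 ± 0.08 SE, adjusted p = 1.95e-08). COPG2 shares 228 exonic bases, 5.51% of its exonic length, with MEST on the opposite strand, and the strand setting of the counting is not given in the sources used here. MEST had a log2 fold change of -3.22 with siGOLM1-1 and 0.29 with siGOLM1-2, the opposite sign to COPG2 in each case. Whether reads of MEST reached the COPG2 counts was not tested.

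COPZ1, the abundant zeta subunit, stood at 245, 241, 250.1 and 235 CPM in the control libraries, 147, 169, 156 and 145 CPM under siGOLM1-1 and 188, 197, 184 and 213 CPM under siGOLM1-2. All libraries of both siRNAs were below the control, and those with siGOLM1-1 were the lowest. It fell 1.57-fold with siGOLM1-1 (log2 change -0.65 ± 0.07 SE, adjusted p = 4.7e-06) and less with siGOLM1-2 (log2 change -0.31 ± 0.07 SE, adjusted p = 0.00214). COPZ2, its paralog, stood at 6.22, 5.75, 7.03 and 7.03 CPM in the control libraries, 3.60, 4.59, 4.54 and 4.09 CPM under siGOLM1-1 and 10.2, 9.36, 9.45 and 16.6 CPM under siGOLM1-2. Here too the groups did not overlap, but the order was different, with siGOLM1-2 above the control and siGOLM1-1 below it. COPZ2 fell 1.55-fold with siGOLM1-1 (log2 change -0.63 ± 0.18 SE, adjusted p = 0.00906) and rose 1.75-fold with siGOLM1-2 (log2 change 0.81 ± 0.17 SE, adjusted p = 0.00179). Replicate 4 of siGOLM1-2 held the highest value. Against control replicates 1 and 2 alone, the siGOLM1-1 value of COPZ2 was -0.51 and missed the threshold (adjusted p = 0.0804).

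Of the other coatomer genes, COPB2, the beta' subunit that binds cargo signals, fell with siGOLM1-2 (log2 change -0.30, adjusted p = 0.000599), and was at -0.11 with siGOLM1-1. Its libraries held 192 to 208 CPM in the control, 183 to 193 CPM under siGOLM1-1 and 159 to 169.8 CPM under siGOLM1-2, and siGOLM1-2 lay below the control. COPB1, the beta subunit, fell with siGOLM1-2 (log2 change -0.22, adjusted p = 0.0157), and so did COPA, the alpha subunit (log2 change -0.14, adjusted p = 0.0491). These calls were fragile. That of COPA was kept only when a siGOLM1-1 library was left out, and ended without any of the other 8 libraries (log2 fold change -0.15 to -0.12, adjusted p = 0.0693 to 0.141). That of COPB1 ended without siGOLM1-2 replicate 1 or replicate 3 (-0.20 and -0.19, adjusted p = 0.0533 and 0.0536). Scaled by library totals alone, COPA was at -0.07 and COPB1 at -0.14 with siGOLM1-2, and neither passed. Against control replicates 1 and 2 alone neither passed (-0.16 and -0.20, adjusted p = 0.102 and 0.0892), and COPA also did not against replicates 3 and 4 alone (-0.11, adjusted p = 0.23). COPE, COPG1 and ARCN1, the epsilon, gamma and delta subunits, were not called in any comparison and lay between 0.06 and 0.22 against control. COPE passed with siGOLM1-1 without siGOLM1-1 replicate 1 (0.29, adjusted p = 0.0209) or replicate 3 (0.28, adjusted p = 0.042), and with both siRNAs against control replicates 1 and 2 alone (0.33 each, adjusted p = 0.0403 and 0.0442). Between the siRNAs COPB1 (log2 change 0.20, adjusted p = 0.0228) and COPB2 (log2 change 0.19, adjusted p = 0.0101) were higher with siGOLM1-1, but at 0.07 and 0.06 neither passed with library totals alone. The COPB1 difference also ended without siGOLM1-1 replicate 2 or 3 or siGOLM1-2 replicate 1 or 3 (0.17 to 0.18, adjusted p = 0.0549 to 0.0754).

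The zeta subunit genes each hold a microRNA gene within their span in RefSeq (GRCh38.p14), and the 2 microRNAs share a seed, so their mature 3p strands are shown with the seed, bases 2 to 8, in capitals. They lie at chr12:54337278-54337299 on the plus strand and chr17:48037174-48037194 on the minus strand.
hsa-miR-148b-3p in COPZ1: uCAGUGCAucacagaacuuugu
hsa-miR-152-3p in COPZ2: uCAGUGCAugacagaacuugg
Both carry the seed CAGUGCA. The libraries measured mRNA, so the levels of the microRNAs themselves were not measured here, and only the host transcripts can be compared: COPZ1 fell with both siRNAs, while COPZ2 fell with siGOLM1-1 and rose with siGOLM1-2.

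In the COPII coat, 3 of 12 genes rose and 2 fell with siGOLM1-1, and 2 rose and 4 fell with siGOLM1-2. Over all genes 23.7% rose and 23.8% fell with siGOLM1-1, and 21.8% rose and 23.2% fell with siGOLM1-2. The cargo-binding SEC24 subunits accounted for 4 of the 5 calls with siGOLM1-1. SEC24B stood at 45.1, 45.2, 42.2 and 43.2 CPM in the control libraries, 30.1, 26.4, 31.4 and 24.0 CPM under siGOLM1-1 and 32.4, 38.1, 35.1 and 34.5 CPM under siGOLM1-2. Every library of either siRNA was below every control library, and siGOLM1-1 was below siGOLM1-2. It fell 1.57-fold (log2 change -0.65 ± 0.09 SE, adjusted p = 3.76e-05) with siGOLM1-1 and less with siGOLM1-2 (log2 change -0.33 ± 0.09 SE, adjusted p = 0.00714). SEC24C, the most abundant of the 4 per length, stood at 189, 204, 233 and 233 CPM in the control libraries, 136, 134, 136 and 150.2 CPM under siGOLM1-1 and 180.1, 173, 183 and 177 CPM under siGOLM1-2. The order of the groups was the same as for SEC24B, without overlap, although control replicates 3 and 4 were above replicates 1 and 2. SEC24C fell 1.55-fold with siGOLM1-1 (log2 change -0.63 ± 0.08 SE, adjusted p = 1.51e-05) and 1.21-fold with siGOLM1-2 (log2 change -0.27 ± 0.08 SE, adjusted p = 0.00959). The siGOLM1-2 calls of both genes rested on which control pair was used. Against control replicates 1 and 2 alone SEC24C was at -0.14 (adjusted p = 0.166), and against control replicates 3 and 4 alone SEC24B was at -0.27 (adjusted p = 0.0699). In GENCODE release 29, 42.9% of the exonic bases of SEC24C overlap AC022400.8, an unclassified transcript model of the opposite strand, and its part in the SEC24C counts was not tested.

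The other SEC24 subunits went the other way. SEC24A (log2 change 0.27, adjusted p = 0.0456) and SEC24D (log2 change 0.30, adjusted p = 0.0309) were called higher with siGOLM1-1, and had 0.25 and 0.21 with siGOLM1-2, where neither passed (adjusted p = 0.0696 and 0.119). SEC24A was at 29.4 to 34.8 CPM in the control, 32.8 to 45.5 CPM under siGOLM1-1 and 35.9 to 43.0 CPM under siGOLM1-2, and SEC24D at 31.4 to 35.2 CPM in the control, 32.1 to 45.8 CPM under siGOLM1-1 and 34.9 to 43.7 CPM under siGOLM1-2. The siGOLM1-1 libraries overlapped the control libraries for both. The SEC24A call was kept only without control replicate 2, siGOLM1-1 replicate 4 or siGOLM1-2 replicate 4, and ended without any of the other 9 libraries (0.20 to 0.30, adjusted p = 0.0508 to 0.128). The SEC24D call ended without control replicate 1, 2 or 4 or siGOLM1-1 replicate 2, 3 or 4 (0.24 to 0.30, adjusted p = 0.0552 to 0.0979). With 1 control pair alone, SEC24A was at 0.20 against replicates 1 and 2 (adjusted p = 0.234), and SEC24D at 0.35 and 0.26 against the 2 pairs (adjusted p = 0.0553 and 0.15). With siGOLM1-2, SEC24A passed without siGOLM1-1 replicate 4 (0.25, adjusted p = 0.0388) and SEC24D without siGOLM1-1 replicate 1 (0.21, adjusted p = 0.042).

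SEC16A, the scaffold of endoplasmic reticulum exit sites, stood at 218, 193, 195 and 222 CPM in the control libraries, 233, 178, 165 and 182 CPM under siGOLM1-1 and 157, 156, 166 and 139 CPM under siGOLM1-2. The siGOLM1-2 libraries were all below the control, while the range of the siGOLM1-1 libraries overlapped both other groups. Replicate 1 of siGOLM1-1, at 233 CPM, was above every control library. Replicate 3, at 165 CPM, was just below the highest siGOLM1-2 library. SEC16A fell 1.34-fold with siGOLM1-2 (log2 change -0.42 ± 0.10 SE, adjusted p = 0.00389) and was at -0.13 with siGOLM1-1 (adjusted p = 0.32). Without siGOLM1-1 replicate 1, the siGOLM1-1 value was -0.24 and passed (adjusted p = 0.0224). The difference between the siRNAs (log2 change 0.30, adjusted p = 0.0237) then ended (0.18, adjusted p = 0.067), as it did without siGOLM1-2 replicate 4 (0.25, adjusted p = 0.0643) and with library totals alone (0.17). SEC31A, of the outer cage, rose with siGOLM1-1 (log2 change 0.39 ± 0.06 SE, adjusted p = 9.71e-05), with 140.2 to 154 CPM in the control, 188 to 194 CPM under siGOLM1-1 and 132 to 144 CPM under siGOLM1-2. Its siGOLM1-1 libraries were above both other groups, and siGOLM1-2 overlapped the control. SEC13, the partner of SEC31A in the cage, was at 0.21 and 0.02 and was not called. It passed with siGOLM1-1 without siGOLM1-1 replicate 1 (0.28, adjusted p = 0.0161) or siGOLM1-2 replicate 4 (0.21, adjusted p = 0.04). Without the same libraries it also passed between the siRNAs (0.25 and 0.26, adjusted p = 0.0222 and 0.0217).

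The SEC23 paralogs, which activate the GTPase of SAR1, separated with siGOLM1-2 alone. SEC23A was at 221 to 231 CPM in the control, 216 to 252 CPM under siGOLM1-1 and 171 to 193 CPM under siGOLM1-2, and fell with siGOLM1-2 (log2 change -0.32 ± 0.06 SE, adjusted p = 0.00122). SEC23B was at 112 to 124 CPM in the control, 112 to 126 CPM under siGOLM1-1 and 135 to 149 CPM under siGOLM1-2, and rose with siGOLM1-2 (log2 change 0.27 ± 0.06 SE, adjusted p = 0.00319). For both genes the siGOLM1-2 libraries lay outside the other 2 groups, which overlapped, and with siGOLM1-1 the values were 0.08 and 0.01. The direct comparison called both, SEC23A (log2 change 0.40, adjusted p = 0.000148) and SEC23B (log2 change -0.26, adjusted p = 0.00344). SAR1B, a GTPase that starts the coat, rose with siGOLM1-2 (log2 change 0.26, adjusted p = 0.00749) and was at 0.01 with siGOLM1-1. Against control replicates 3 and 4 alone the siGOLM1-2 call of SAR1B ended (0.23, adjusted p = 0.0544). SAR1A, its paralog, and PREB, the exchange factor of SAR1, were not called in any comparison, at -0.11 and 0.05 with siGOLM1-1 and -0.08 and 0.18 with siGOLM1-2.

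All 3 KDEL receptors were called with siGOLM1-1, the most abundant one lower and the others higher, where 47.5% of all genes were called. KDELR1 stood at 388, 430.4, 468 and 464 CPM in the control libraries, 200.2, 221, 239 and 232 CPM under siGOLM1-1 and 384, 393, 382 and 434 CPM under siGOLM1-2. Its siGOLM1-1 libraries were far below the other groups and overlapped neither, while siGOLM1-2 overlapped the control. KDELR1 fell 1.96-fold with siGOLM1-1 (log2 change -0.97 ± 0.08 SE, adjusted p = 5.92e-07) and was at -0.13 with siGOLM1-2 (adjusted p = 0.193). The direct difference was 1.79-fold (log2 change -0.84 ± 0.08 SE, adjusted p = 1.41e-06). KDELR3, the least abundant per length, stood at 17.5, 17.4, 15.1 and 15.4 CPM in the control libraries, 21.7, 30.1, 32.9 and 27.0 CPM under siGOLM1-1 and 19.4, 20.3, 18.9 and 25.8 CPM under siGOLM1-2. Both siRNA groups were above the control, and they overlapped each other. KDELR3 rose 1.71-fold with siGOLM1-1 (log2 change 0.77 ± 0.13 SE, adjusted p = 0.000265) and 1.29-fold with siGOLM1-2 (log2 change 0.37 ± 0.13 SE, adjusted p = 0.032). The siGOLM1-2 call of KDELR3 ended without control replicate 3 or 4 or siGOLM1-2 replicate 2 or 4 (0.26 to 0.39, adjusted p = 0.05 to 0.108), and against control replicates 1 and 2 alone (0.27, adjusted p = 0.213). The direct difference (log2 change 0.40, adjusted p = 0.0164) ended without siGOLM1-1 replicate 3 or siGOLM1-2 replicate 3 (0.32 and 0.35, adjusted p = 0.059 and 0.052).

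KDELR2, between them in level, was at 140.4 to 151 CPM in the control, 152 to 196 CPM under siGOLM1-1 and 167 to 201 CPM under siGOLM1-2. Each siRNA library was above the control libraries. It rose with siGOLM1-1 (log2 change 0.23, adjusted p = 0.0393) and with siGOLM1-2 (log2 change 0.28, adjusted p = 0.0138), and the siRNAs differed by -0.06 (adjusted p = 0.587). The siGOLM1-1 call ended without control replicate 1, 3 or 4, siGOLM1-1 replicate 2 or 3 or siGOLM1-2 replicate 2 (0.16 to 0.24, adjusted p = 0.0535 to 0.132), and against either control pair alone (0.24 and 0.22, adjusted p = 0.102 and 0.119). With siGOLM1-2 the call ended when either control pair was used alone (0.29 against each, adjusted p = 0.054 and 0.0523).

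KDELR3 was 1 of 5 members with a motif of the unfolded protein response in the 250 bases before a RefSeq transcription start. These 5 promoters are shown for that motif, which most members lacked. The motif searched was TGACGTGG, the core of the unfolded protein response element, on both strands. A table of RefSeq promoters on GRCh38.p14 held 42 of the 50 members. The core was present in 5 of them, 11.9%, and in 213 of all 27305 genes of the table, 0.780%. The table is not limited to the 17532 genes tested, and a share over those was not computed for any motif. Each stretch is 60 bases read 5′ to 3′ on the strand of the gene, and capitals mark the core in the orientation found, with the adjoining base where it completes the Golgi element described after the sequences.
KDELR3, chr22:38468024-38468083, plus strand: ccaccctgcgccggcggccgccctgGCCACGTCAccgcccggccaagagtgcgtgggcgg
ARF1, chr1:228082648-228082707, plus strand: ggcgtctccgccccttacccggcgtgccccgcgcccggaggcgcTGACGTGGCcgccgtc
SEC24A, chr5:134648580-134648639, plus strand: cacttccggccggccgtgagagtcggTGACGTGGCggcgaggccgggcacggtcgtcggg
COPB1, chr11:14499826-14499885, minus strand: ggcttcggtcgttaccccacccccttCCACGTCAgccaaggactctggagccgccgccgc
COPB2, chr3:139389810-139389869, minus strand: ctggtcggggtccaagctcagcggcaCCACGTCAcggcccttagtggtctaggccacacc
The members with the core did not share a direction. KDELR3 rose with both siRNAs. SEC24A was called higher with siGOLM1-1, COPB1 and COPB2 lower with siGOLM1-2, and ARF1 was called against control with neither siRNA. The element of the Golgi stress response, ACGTGGC, overlaps the core and was found in 11 of the 42 members, 26.2%, against 935 of all genes, 3.42%. These were ARCN1, ARF1, COG3, COPB2, COPG1, KDELR3, SAR1A, SEC13, SEC24A, SEC24C and SEC31A. With siGOLM1-1, KDELR3, SEC24A and SEC31A were called higher, SEC24C lower and the other 7 not. The full endoplasmic reticulum stress element (CCAAT and CCACG spaced by 9 bases) was in no member and in 25 genes, and the CLEAR element of lysosomal genes in no member and in 102 genes. A match describes the letters of the promoter and says nothing of whether a factor binds there.

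In the ARF cycle, 1 of 8 genes rose and 3 fell with siGOLM1-1, beside 23.7% and 23.8% of all genes. With siGOLM1-2, 1 rose and none fell, beside 21.8% and 23.2%. The 2 ends of the siGOLM1-1 range of all members were in this group. GBF1, the exchange factor that loads ARF with GTP at the cis-Golgi, stood at 136, 129, 144 and 167 CPM in the control libraries, 68.6, 56.1, 52.5 and 58.3 CPM under siGOLM1-1 and 138, 132, 138 and 133 CPM under siGOLM1-2. The siGOLM1-1 libraries were far below all others, and siGOLM1-2 overlapped the control. GBF1 fell 2.45-fold with siGOLM1-1 (log2 change -1.29 ± 0.09 SE, adjusted p = 1.6e-07), was at -0.09 with siGOLM1-2 (adjusted p = 0.437), and differed 2.29-fold between the siRNAs (log2 change -1.20 ± 0.09 SE, adjusted p = 1.75e-07). ARFGAP3, a GTPase-activating protein that works with coatomer, stood at 26.4, 26.9, 25.7 and 25.3 CPM in the control libraries, 46.5, 55.9, 62.6 and 53.1 CPM under siGOLM1-1 and 36.3, 38.0, 37.8 and 37.4 CPM under siGOLM1-2. The groups did not overlap, with the control lowest and siGOLM1-1 highest. ARFGAP3 rose 2.09-fold with siGOLM1-1 (log2 change 1.06 ± 0.08 SE, adjusted p = 2.53e-07) and 1.43-fold with siGOLM1-2 (log2 change 0.52 ± 0.08 SE, adjusted p = 0.000168), and the siRNAs differed (log2 change 0.55, adjusted p = 6.16e-05). ARFGAP2, its closest paralog, was at 45.6 to 53.2 CPM in the control, 35.4 to 38.6 CPM under siGOLM1-1 and 52.1 to 54.7 CPM under siGOLM1-2. It fell with siGOLM1-1 (log2 change -0.40 ± 0.07 SE, adjusted p = 0.00031) and was at 0.11 with siGOLM1-2. Against control replicates 1 and 2 alone that siGOLM1-2 value was 0.21 and passed (adjusted p = 0.0425).

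Among the ARF GTPases themselves, ARF3 fell with siGOLM1-1 (log2 change -0.30, adjusted p = 0.00334), where its libraries held 142 to 159 CPM beside 175 to 198 CPM in the control. Its value with siGOLM1-2 was -0.14 and passed without siGOLM1-2 replicate 4 (-0.19, adjusted p = 0.0324). ARF1 was at 0.17 and -0.10 and differed between the siRNAs (log2 change 0.27, adjusted p = 0.0059), a difference that was 0.13 and did not pass with library totals alone. Without siGOLM1-1 replicate 1 or siGOLM1-2 replicate 4, ARF1 passed with siGOLM1-1 (0.22 and 0.17, adjusted p = 0.0183 and 0.0478). ARF4, ARF5 and ARFGAP1 were not called, with 0.01 to 0.13 for siGOLM1-1 and -0.13 to 0.20 for siGOLM1-2. Between the siRNAs ARF4 passed without siGOLM1-1 replicate 1 or siGOLM1-2 replicate 4 (0.25 and 0.29, adjusted p = 0.0394 and 0.00849). Without siGOLM1-1 replicate 2, ARF5 (-0.28, adjusted p = 0.0216) and ARFGAP1 (0.30, adjusted p = 0.0236) passed there. On the opposite strand, ARF5 shares 21.9% of its exonic bases with GCC1 and ARF4 11.6% with ARF4-AS1. On the same strand, ARF5 shares 15.9% with FSCN3 and ARF3 10.7% with AC073610.3. The part of these overlaps in the counts was not tested.

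**Figure D3:**
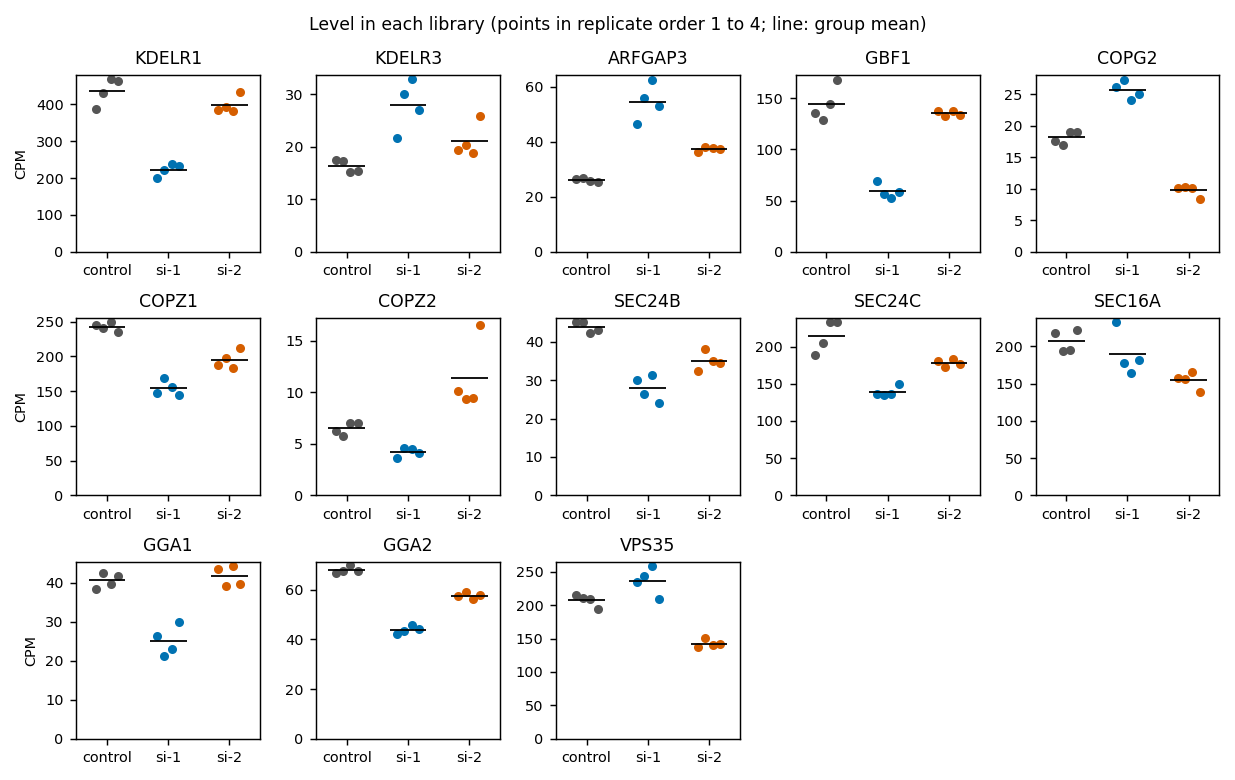
CPM of 13 members in each library (points in replicate order; line, group mean; every axis starts at 0). KDELR1 and GBF1 are low in the siGOLM1-1 libraries alone, ARFGAP3 is higher in both siRNA groups, and the group means of COPG2, COPZ2 and VPS35 lie on opposite sides of the control in the 2 siRNA groups.

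The COG complex had no gene that rose against control. With siGOLM1-1, 4 of its 8 subunits fell, and with siGOLM1-2, 2 fell, beside 23.8% and 23.2% of all genes. COG2, of lobe A, was at 41.8 to 50.9 CPM in the control, 27.5 to 30.9 CPM under siGOLM1-1 and 39.8 to 42.5 CPM under siGOLM1-2 and fell 1.57-fold with siGOLM1-1 (log2 change -0.65 ± 0.07 SE, adjusted p = 7.85e-06). COG1, its neighbour in lobe A, was at 27.1 to 40.2 CPM in the control, 20.7 to 25.4 CPM under siGOLM1-1 and 31.4 to 34.6 CPM under siGOLM1-2 and fell 1.52-fold (log2 change -0.60 ± 0.11 SE, adjusted p = 0.000552). For both, the siGOLM1-1 libraries were below the other 2 groups, which overlapped each other. COG4, which binds SNARE proteins, fell by less with siGOLM1-1 (log2 change -0.35, adjusted p = 0.000373). With siGOLM1-2 COG1, COG2 and COG4 were at -0.09, -0.16 and -0.14 and did not pass, and all 3 differed between the siRNAs, COG1 (log2 change -0.51, adjusted p = 0.00151), COG2 (log2 change -0.49, adjusted p = 6.78e-05) and COG4 (log2 change -0.21, adjusted p = 0.00993). Without control replicate 1 the siGOLM1-2 value of COG4 passed (-0.18, adjusted p = 0.0421), and against control replicates 3 and 4 alone that of COG2 passed (-0.24, adjusted p = 0.0364). COG1 shares 21.7% of its exonic bases with FAM104A on the opposite strand, and it was the member that differed most between the control pairs.

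COG5, of lobe B, fell with siGOLM1-1 (log2 change -0.24, adjusted p = 0.0161) and with siGOLM1-2 (log2 change -0.22, adjusted p = 0.0271). Its exons share 11.5% of their bases with HBP1 on the opposite strand. The siGOLM1-1 call ended without siGOLM1-1 replicate 2 (-0.21, adjusted p = 0.0504). The siGOLM1-2 call ended without control replicate 1, 2 or 3 or siGOLM1-2 replicate 1, 2 or 3 (-0.22 to -0.19, adjusted p = 0.0564 to 0.0868). With either control pair alone the siGOLM1-2 call also ended (-0.25 and -0.18, adjusted p = 0.061 and 0.17), and the siGOLM1-1 call did against replicates 3 and 4 (-0.20, adjusted p = 0.114). COG7, also of lobe B, fell with siGOLM1-2 (log2 change -0.27, adjusted p = 0.023), was at 0.13 with siGOLM1-1 and differed between the siRNAs (log2 change 0.40, adjusted p = 0.00179). Its siGOLM1-2 call ended without control replicate 3 or 4 or siGOLM1-2 replicate 4 (-0.25 to -0.22, adjusted p = 0.0548 to 0.0749). Against control replicates 1 and 2 alone COG7 was at -0.13 with siGOLM1-2 (adjusted p = 0.309) and at 0.27 with siGOLM1-1 (adjusted p = 0.0419). COG3, COG6 and COG8 were not called in any comparison and lay between 0.02 and 0.21 against control. COG6 and COG8 were the 2 least abundant members per length. On the opposite strand COG8 shares 16.7% of its exonic bases with VPS4A and 12.9% with NIP7, and on its own strand 11.9% with AC026464.6.

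Of the 3 retromer genes, 2 rose with siGOLM1-1, 1 fell with siGOLM1-2, and 2 were higher with siGOLM1-1 in the direct comparison. The matching shares of all genes were 23.7%, 23.2% and 27.9%. VPS35, the backbone of the complex, stood at 216, 211, 209 and 195 CPM in the control libraries, 235, 243, 259 and 209 CPM under siGOLM1-1 and 137, 150.2, 140.4 and 142 CPM under siGOLM1-2. The siGOLM1-2 libraries were below all others, while siGOLM1-1 overlapped the control because its replicate 4 was at 209 CPM. VPS35 fell 1.46-fold with siGOLM1-2 (log2 change -0.55 ± 0.07 SE, adjusted p = 3.98e-05) and was called 1.14-fold higher with siGOLM1-1 (log2 change 0.19 ± 0.07 SE, adjusted p = 0.0426). The siGOLM1-1 call was kept only without siGOLM1-1 replicate 4 or siGOLM1-2 replicate 4 and ended without any of the other 10 libraries (0.14 to 0.21, adjusted p = 0.0505 to 0.127). It also ended against either control pair alone (0.15 and 0.24, adjusted p = 0.204 and 0.0519). The direct difference was 1.66-fold (log2 change 0.73 ± 0.07 SE, adjusted p = 1.46e-06). VPS26A, an arm of the complex, rose with siGOLM1-1 (log2 change 0.25, adjusted p = 0.0167) and was at -0.10 with siGOLM1-2. Its siGOLM1-1 call ended without siGOLM1-1 replicate 3 (0.19, adjusted p = 0.0567) and against control replicates 3 and 4 alone (0.25, adjusted p = 0.0743). It differed between the siRNAs (log2 change 0.35, adjusted p = 0.00172). VPS29 was not called in any comparison, at -0.11 and -0.04 against control, although without siGOLM1-1 replicate 2 it was at -0.17 with siGOLM1-1 and reached the threshold (adjusted p = 0.05).

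Of the 7 clathrin adaptors of the trans-Golgi network, 5 fell and 1 rose with siGOLM1-1, beside 23.8% and 23.7% of all genes. With siGOLM1-2, 2 fell and none rose, beside 23.2% and 21.8% of all genes. GGA2, a monomeric adaptor, stood at 66.5, 67.4, 69.9 and 67.4 CPM in the control libraries, 42.2, 43.5, 45.6 and 44.3 CPM under siGOLM1-1 and 57.3, 59.0, 56.2 and 57.7 CPM under siGOLM1-2. The 3 groups did not overlap, the control was highest and siGOLM1-1 lowest. GGA2 fell 1.55-fold (log2 change -0.63 ± 0.05 SE, adjusted p = 8.38e-07) and 1.18-fold (log2 change -0.24 ± 0.05 SE, adjusted p = 0.00296). GGA1 stood at 38.4, 42.4, 39.7 and 41.7 CPM in the control libraries, 26.2, 21.3, 23.1 and 29.8 CPM under siGOLM1-1 and 43.3, 39.1, 44.2 and 39.6 CPM under siGOLM1-2. Its siGOLM1-1 libraries were below both other groups, which overlapped. GGA1 fell 1.62-fold with siGOLM1-1 (log2 change -0.69 ± 0.10 SE, adjusted p = 5.37e-05) and was at 0.04 with siGOLM1-2 (adjusted p = 0.785), and the siRNAs differed (log2 change -0.73, adjusted p = 2.33e-05). GGA3 also fell with siGOLM1-1 (log2 change -0.37, adjusted p = 0.00259) and was at -0.12 with siGOLM1-2. The direct difference of GGA3 (log2 change -0.25, adjusted p = 0.0232) ended without siGOLM1-1 replicate 2 or 3 or siGOLM1-2 replicate 1 or 3 (-0.24 to -0.18, adjusted p = 0.0544 to 0.0784).

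The 4 subunits of AP-1 did not move together. AP1B1, the beta subunit that binds clathrin, was at 75.1 to 92.8 CPM in the control, 57.7 to 62.2 CPM under siGOLM1-1 and 91.0 to 102 CPM under siGOLM1-2 and fell with siGOLM1-1 (log2 change -0.50 ± 0.08 SE, adjusted p = 0.000178). With siGOLM1-2 AP1B1 was at 0.19 (adjusted p = 0.0706), and the siRNAs differed (log2 change -0.69, adjusted p = 7.62e-06). That siGOLM1-2 value passed without control replicate 3 or 4 (0.24 and 0.23, adjusted p = 0.0373 and 0.0422) and against control replicates 1 and 2 alone (0.34, adjusted p = 0.00444). AP1S1, the small sigma subunit, was at 76.5 to 80.9 CPM in the control, 105 to 135 CPM under siGOLM1-1 and 83.4 to 116 CPM under siGOLM1-2 and rose with siGOLM1-1 (log2 change 0.54 ± 0.10 SE, adjusted p = 0.000832). Each library of both siRNAs was above the control, and the siGOLM1-2 value of 0.26 missed the threshold (adjusted p = 0.0553). It passed without siGOLM1-1 replicate 2 or siGOLM1-2 replicate 3 (0.26 and 0.32, adjusted p = 0.0362 and 0.0339). The difference of AP1S1 between the siRNAs (log2 change 0.28, adjusted p = 0.0375) ended without siGOLM1-1 replicate 2 or 4 or siGOLM1-2 replicate 1, 2 or 3 (0.19 to 0.29, adjusted p = 0.0545 to 0.128). AP1G1, the gamma subunit, fell with siGOLM1-1 (log2 change -0.27, adjusted p = 0.0194) and siGOLM1-2 (log2 change -0.36, adjusted p = 0.004). Its siGOLM1-1 call ended without control replicate 1 or 2 or siGOLM1-1 replicate 4 (-0.25 to -0.19, adjusted p = 0.0501 to 0.0566). Against control replicates 3 and 4 alone both AP1G1 calls ended (-0.19 and -0.27, adjusted p = 0.165 and 0.0533). AP1M1, the mu subunit that reads sorting signals, was not called, at -0.03 and -0.11, although against control replicates 3 and 4 alone it passed with siGOLM1-2 (-0.25, adjusted p = 0.0482).

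The comparisons of the siRNAs with control share the control libraries, so the direct comparison is the test of a difference between them. It called 29 members, and the largest differences were COPZ2 at -1.44, COPG2 at 1.40 and GBF1 at -1.20. The log2 fold changes of members in the authors' deposited tables differed from those given here by at most 0.0142 for siGOLM1-1 and 0.0185 for siGOLM1-2.

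The balance within 12 pairs of paralogs was compared as the log2 ratio of their counts in each library, which does not depend on the scaling between libraries. With 4 libraries against 4 the smallest two-sided exact permutation p is 0.0286, and p was adjusted over the 12 pairs. At an adjusted p under 0.05, 8 pairs shifted with siGOLM1-1, 9 with siGOLM1-2 and 10 between the siRNAs. Ratios of other gene pairs were not computed, so these counts have no background and show nothing particular to paralogs. A pair that passed had p = 0.0286 in the exact test, adjusted to 0.0429, 0.0381 and 0.0343 in the 3 comparisons. The ratio of ARFGAP2 to ARFGAP3 was 0.91 ± 0.16 (SD, n = 4) in the control, -0.54 ± 0.21 under siGOLM1-1 and 0.51 ± 0.04 under siGOLM1-2. It thus changed sign with siGOLM1-1, where ARFGAP3 had more counts than ARFGAP2. Per kb of exon, ARFGAP2 was at 8.328 and ARFGAP3 at 7.7135 CPM in the control. With siGOLM1-1 they were at 6.3169 and 16.133, and with siGOLM1-2 at 8.9852 and 11.045 CPM per kb. By that measure ARFGAP3 stood above ARFGAP2 with both siRNAs. KDELR1 to KDELR2 went from 1.57 ± 0.10 to 0.38 ± 0.10 and 1.16 ± 0.04. Unlike the fold change of KDELR1 alone, this ratio shifted with siGOLM1-2 as well. There KDELR2 was called higher (0.28), while KDELR1 was at -0.13 and not called.

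Both SEC24 pairs shifted with each siRNA. SEC24A to SEC24B moved from -0.41 ± 0.07 to 0.51 ± 0.06 with siGOLM1-1 and 0.16 ± 0.07 with siGOLM1-2, so that SEC24A took the larger count in both siRNA groups. The counts are not corrected for gene length. Per kb of exon, SEC24A was at 5.54 and SEC24B at 5.36 CPM with siGOLM1-1. With siGOLM1-2 SEC24A stayed below SEC24B, at 5.44 and 6.71 CPM per kb. SEC24C to SEC24D moved by -0.91 and -0.47 toward SEC24D. In the coatomer pairs COPG1 to COPG2 shifted by -0.36 with siGOLM1-1 and 0.97 with siGOLM1-2. COPZ1 to COPZ2 shifted by -1.08 with siGOLM1-2, whereas with siGOLM1-1, where both fell, the shift was -0.03 (adjusted p = 0.857, exact permutation test). With siGOLM1-2 the balance also shifted for SEC23A to SEC23B (-0.60), SAR1A to SAR1B (-0.34) and ARF4 to ARF5 (-0.28), pairs at 0.06, -0.12 and 0.12 with siGOLM1-1, where none of the 3 passed. With siGOLM1-1 it shifted for KDELR3 to KDELR2 (0.54), ARF1 to ARF3 (0.46) and GGA1 to GGA3 (-0.33), which were at 0.08, 0.04 and 0.16 with siGOLM1-2 and did not pass there. In the direct comparison those 6 pairs all passed except SAR1A to SAR1B, as did the others except SEC24C to SEC24D (adjusted p = 0.0571 for both, exact permutation test).

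**Figure D4:**
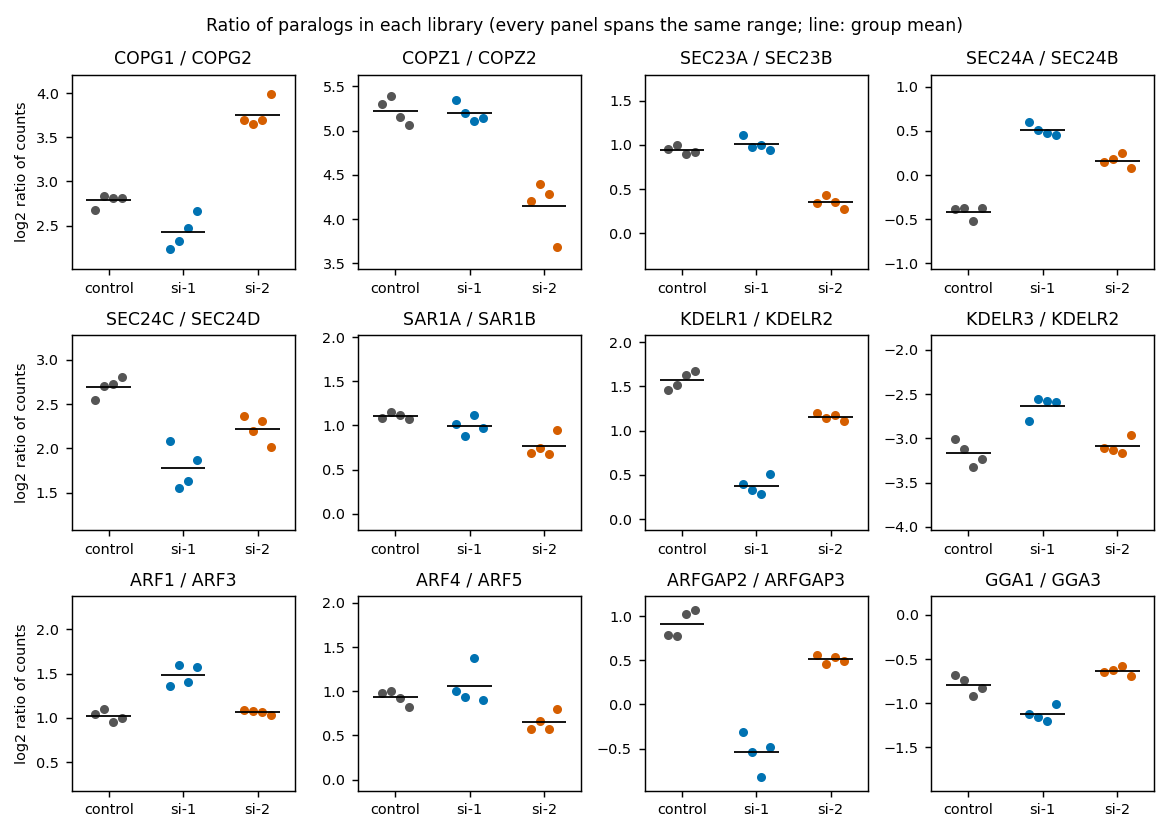
Log2 ratio of the counts of 2 paralogs in each library for 12 pairs, with group means as lines; all panels span the same range. The ARFGAP2 to ARFGAP3 ratio is above 0 in the control and below 0 with siGOLM1-1, and the SEC24A to SEC24B ratio is below 0 in the control and above 0 in both siRNA groups. A ratio of 0 means equal counts, not equal levels per exon length.

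Beyond the members, 6 lists of neighbouring genes were counted, 119 genes tested in all. Of these, 37 rose and 22 fell with siGOLM1-1, 28 rose and 26 fell with siGOLM1-2, and 38 were higher and 28 lower in the direct comparison. These are 49.6%, 45.4% and 55.5% of the 119, near the 47.5%, 45.0% and 54.4% of all genes tested. With library totals alone the counts were 34 and 28, 39 and 18, and 17 and 44. By direction, 23.7% of all genes were called higher and 23.8% lower with siGOLM1-1, and 21.8% and 23.2% with siGOLM1-2. The single lists were not tested against these shares. Among 19 other COPI and COPII factors 7 rose and 1 fell with siGOLM1-1, and 6 rose and 3 fell with siGOLM1-2. TMED10, a cargo receptor of both coats, rose with siGOLM1-1 (0.57) and fell with siGOLM1-2 (-0.94). Of 18 regulators of endoplasmic reticulum stress and the CREB3 family, 9 rose and 1 fell with siGOLM1-1, and 4 rose and 4 fell with siGOLM1-2. CREB3L1, a transcription factor activated by cleavage in the Golgi, rose with siGOLM1-1 (1.75) and by more with siGOLM1-2 (2.699). MBTPS1, a Golgi protease that cleaves CREB3L1, rose with both (0.49 and 0.29). HSP90B1, of the same list, fell with siGOLM1-2 (-0.416). Other ARF regulators split evenly with siGOLM1-1, 5 rising and 5 falling of 20, and 4 and 3 with siGOLM1-2. In that list CYTH3, an exchange factor, rose (1.07) and its relative CYTH1 fell (-0.72) with siGOLM1-1.

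Tethering complexes beside COG had 4 rising and 5 falling of 21 with siGOLM1-1, and 3 and 7 with siGOLM1-2. TRAPPC6B, a TRAPP subunit, rose with both (0.85 and 1.22). With siGOLM1-1 TRAPPC6A rose (1.26) and TRAPPC11 fell (-0.86), and with siGOLM1-2 VPS52 (-0.53) and TRAPPC8 (-0.51) fell. Of 25 other clathrin and adaptor subunits, 6 rose and 8 fell with siGOLM1-1, and 6 rose and 6 fell with siGOLM1-2. There AP1S3, a sigma subunit of AP-1 like AP1S1, fell with siGOLM1-1 (-0.90) and rose with siGOLM1-2 (0.94), a direct difference of -1.84. Among 16 further retromer and sorting nexin genes 6 rose and 2 fell with siGOLM1-1, and 5 rose and 3 fell with siGOLM1-2. SORT1, a sorting receptor that retromer and the GGA adaptors carry, rose with both (0.63 and 0.35). The sorting nexins SNX6 (-1.23) and SNX12 (-0.66) fell with siGOLM1-1. With siGOLM1-2 M6PR rose (0.75) and SNX3 fell (-0.49).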

How the data were processed

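Stranded, paired-end mRNA libraries of 12 A549 cultures in 3 groups of 4 were analysed. The deposited values are whole-number counts per gene; per the submitters' processing notes the authors used bcl2fastq 2.20, STAR 2.7.3, the hg19 genome and DESeq2 1.24.0, while the read counter, annotation and strand setting are not given in the sources used here. The authors' deposited comparison tables give log2 fold changes and adjusted p-values, per the file headers, and served only for a comparison with the values computed here. Counts were fitted in edgeR 4.0.16 (R 4.3.3) with the quasi-likelihood test, TMM scaling, its default expression filter and all 12 libraries in 1 fit, with 9 residual degrees of freedom. Of 57773 genes, 24653 had no count in any library and 17532 were tested, and p-values were adjusted over all of these by the Benjamini-Hochberg method. CPM is the count over the TMM-scaled library total, except for marker genes, where the total was not scaled. Paralog ratios are log2 ratios of counts, compared by exact permutation of the 70 assignments. Alternatives used DESeq2 1.42.0, another scaling, other filters, only the groups compared, a replicate block and subsets of libraries. The code was tested on simulated data.

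Groups were taken from the sample titles. Per-library values are given for members called in the same direction with both siRNAs and changed by at least 0.5 with 1 of them, for members called in opposite directions, and for the 5 largest changes of each comparison. Other genes named are GOLM1, marker genes, MEST for its overlap with COPG2, and genes among the 3 with the smallest p of a list. Further genes are named only because they share exonic bases with a member. MEST was chosen after its values were seen. The members and lists were chosen with earlier results of these data known. Total counts of 41.6 to 71.3 M per library gave every member at least 193 counts. Coordinates and promoter sequences are RefSeq's on GRCh38.p14, and 8 members without an entry in the promoter table are SEC24D, KDELR2, COG7, VPS26A, ARF4, ARFGAP1, AP1M1 and GGA2. Exon lengths and overlaps are from GENCODE release 29.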

Additional observations from a re-analysis of the deposited data

Results flagged for a closer look

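In 6 of 150 groups of 4 libraries, 1 library stood apart from the other 3 by Dixon's criterion, which chance alone meets in about 1 in 20 groups. Replicate 4 of siGOLM1-2 gave 4 of the 6. In it ARF1 stood at 378.67 CPM against 337.06 to 341.71 in the other siGOLM1-2 libraries. ARF3 stood at 185.68 CPM against 158.84 to 161.63. COPG2 was lower there, at 8.4109 CPM against 10.07 to 10.275, and COPZ2 was higher, at 16.563 CPM against 9.3612 to 10.171. The SEC24C level in siGOLM1-1 replicate 4 was 150.17 CPM against 134.3 to 135.91, and the COG4 level in siGOLM1-2 replicate 3 was 68.331 CPM against 73.18 to 73.6.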

How the results depend on the processing

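The total of called genes stayed within 1.5 times of the reported one in each comparison under the alternatives run, while counts by direction moved further, and no direction of a called member reversed. Over all alternatives the members called were 21 to 30 with siGOLM1-1, 16 to 25 with siGOLM1-2 and 25 to 30 between the siRNAs, and the calls of 19 of 27, 10 of 20 and 21 of 29 members were kept in every one. Leaving out 1 library gave 22 to 29, 17 to 21 and 25 to 30. DESeq2 called 30, 23 and 30 members. With siGOLM1-1 the members called higher numbered 6 in place of 10 without control replicate 1 or 4 or siGOLM1-1 replicate 2 or 3, and with control replicates 3 and 4 alone. The split by direction also moved with library totals alone (14 in place of 6 higher with siGOLM1-2, 7 in place of 13 between the siRNAs, and for the other pathway genes between the siRNAs 17 higher and 44 lower in place of 38 and 28), with only the 2 groups compared (11 higher and 14 lower with siGOLM1-2) and with control replicates 1 and 2 alone (7 higher and 9 lower with siGOLM1-2). With no filter on low counts the direct difference of COG4 was -0.20 and did not pass (adjusted p = 0.0591, edgeR). The replicate numbers do not pair the samples: 3 of 12 same-numbered pairs correlated above 0.1 (range -0.20 to 0.35) and 2 of 12 libraries correlated best with their own number. A replicate block gave 26, 19 and 29 members called and 61, 53 and 70 of the other pathway genes. Adding 5 to each count left the paralog pairs that passed at 8, 9 and 10. That addition is small beside the 193 or more counts of each member, so it is a weak check. With 3 libraries in a group the exact test of a pair cannot reach 0.05. Every member had at least 193 counts in each library, and the precision is further limited by the number of libraries, 4 per group.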
